A study of Mus musculus with 23 samples.

Results

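Tumor cells sorted from B16F10 tumors were compared with the same cells grown in culture. B16F10 is a mouse melanoma cell line of the C57BL/6 strain. The comparison took the 6 libraries labeled as sorted tumor cells and the 6 labeled as cultured cells, 12 of the 23 libraries of the series, chosen by their labels and not by any measured value. Both arms held 3 guide groups with 2 libraries each, a control group and groups given sg492 or sg495, sgRNAs against Nr2f6, a nuclear receptor gene. Edited cells had been transfected with Cas9 protein and Cy3-labeled sgRNA and sorted for Cy3, and neither group is described as a single clone. For the sorted arm, cells were injected under the skin of male C57BL/6 mice aged 6 to 8 weeks, tumors were dissociated with collagenase D, and stromal cells were removed with magnetic beads. Growth in a host, digestion and bead sorting all separate the arms and cannot be told apart in this comparison. The 6 bulk tumor libraries of the same guide groups, which are not described as bead-sorted, are given beside the results. The labels do not say that the libraries of a group came from separate animals or cultures, so p-values may measure technical spread only. Expression was in TPM, a measure scaled for transcript length and library total. A fold change is a difference of log2(TPM + 1), sorted minus cultured, fitted with limma within guide group.

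A cell moved from a culture dish to a tumor meets changed growth factors, matrix, oxygen, nutrients and immune cells. Several transcript programs are known to follow such changes. Immediate early genes, which include FOS, JUN and EGR transcription factors, are switched on within minutes by growth factors and by stress, including the stress of tissue dissociation. ATF4 drives genes of amino acid supply when amino acids run short, HIF drives genes of glycolysis, pH control and vessel growth when oxygen is low, and interferons from immune cells drive antigen processing and presentation. Melanocyte genes under MITF set pigment cell identity.

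Library checks came before the comparison. Ptprc, the leukocyte antigen CD45, lay between 0 and 0.15 TPM in sorted cells and was listed at 0 in every cultured library, while bulk tumors had 5.74 to 26.21 TPM. Melanocyte genes were abundant in both arms, as for Mlana, which encodes a melanosome protein, with lowest, median and highest values of 1322, 1504 and 1754 TPM in sorted cells and 2984, 3231 and 3312 TPM in cultured cells. Paired within their groups, libraries had a Pearson r across genes of 0.970 to 0.990. On the 500 most variable genes, the leading principal component held 55.4% of the variance and placed all 6 sorted libraries on 1 side and all 6 cultured libraries on the other. On the next component, which held 9.62%, the sorted sg495 libraries lay at -18.7 and -17.6 and the other sorted libraries between 7.03 and 16.5. Replicate 1 of sorted sg495 had the highest mitochondrial share, 8.02% of TPM against 3.45% to 4.73% in the other sorted libraries. Leaving it out lowered the number of higher genes by 2 or more in the interferon, MHC class I and mitochondrial lists, as given there. No other list count moved by more than 1, but the lower counts of the hypoxia, NF-kB and fatty acid lists and the higher count of ribosome biogenesis went from 1 to 2.

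Of 12575 genes averaging 1 TPM or more, 1853 were higher in sorted cells (14.7%) and 1186 were lower (9.43%). A gene was called when its change reached 1.5-fold with a Benjamini-Hochberg adjusted p under 0.05. The median log2 fold change of all tested genes was -0.02. Changes of at least 4-fold were more often upward, with 207 genes higher and 30 lower. The 6 sorted values did not overlap the 6 cultured values for 1523 of the higher and 1062 of the lower genes, beside 41.2% of all tested genes. A total of 436 higher genes had a cultured mean under 1 TPM and passed the expression filter only through the sorted arm, so they could hardly have been called lower. Likewise 56 lower genes had a sorted mean under 1 TPM and passed only through the cultured arm, so they could hardly have been called higher. The plot of all tested genes shows the largest gains at Fosb and Fos.

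**Figure D1:**
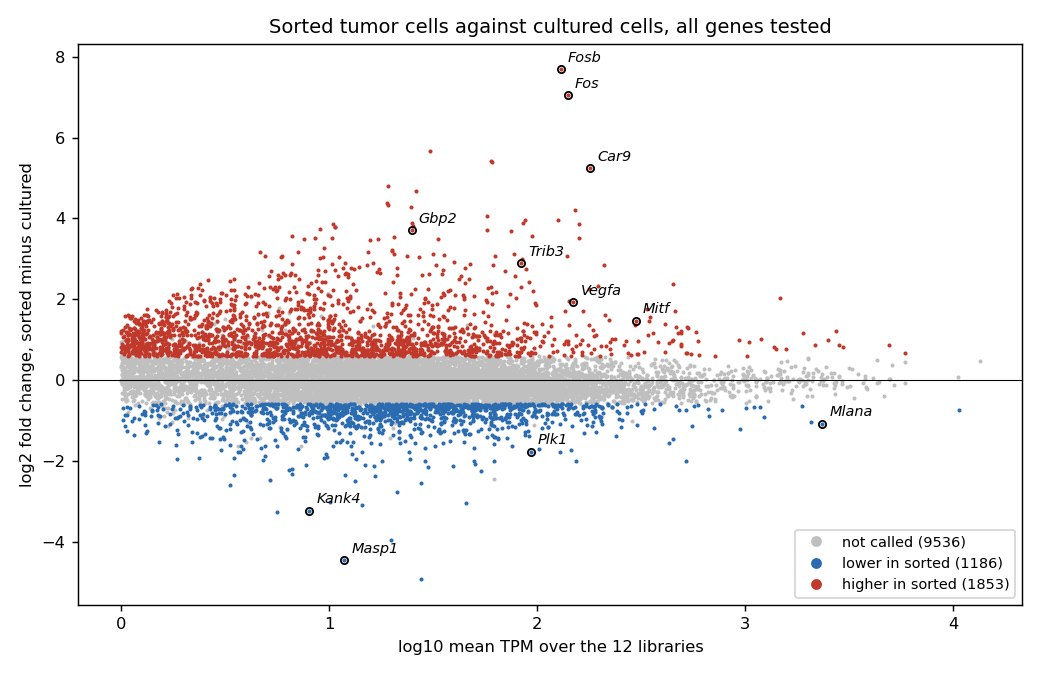
Each point is 1 of 12575 genes, with log10 mean TPM over the 12 libraries on the horizontal axis and the log2 fold change, sorted minus cultured, on the vertical axis; red and blue points were called higher (1853) and lower (1186). Fosb and Fos lie above 7 on the log2 scale, and the named gene with the lowest value is Masp1.

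Genes were grouped in 25 lists by known role. In the order of their medians, the immediate early genes led the gains (25 of 26 tested members higher, median log2 fold change 2.78), followed by feedback genes of the MAPK pathway (9 of 13, median 1.88) and ATF4 target genes (22 of 25, median 1.41). Genes of the cell cycle and DNA replication were at the other end, with 27 of 39 lower and a median of -0.89. Nuclear genes of oxidative phosphorylation hardly entered either call, with 1 of 31 called. Members with a cultured mean under 1 TPM, which passed the filter through the sorted arm, made up 5 of the 26 immediate early, 3 of the 13 MAPK feedback and 2 of the 25 ATF4 genes tested, and all of them were called higher. The plot of list shares sets each list beside the shares of all tested genes.

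**Figure D2:**
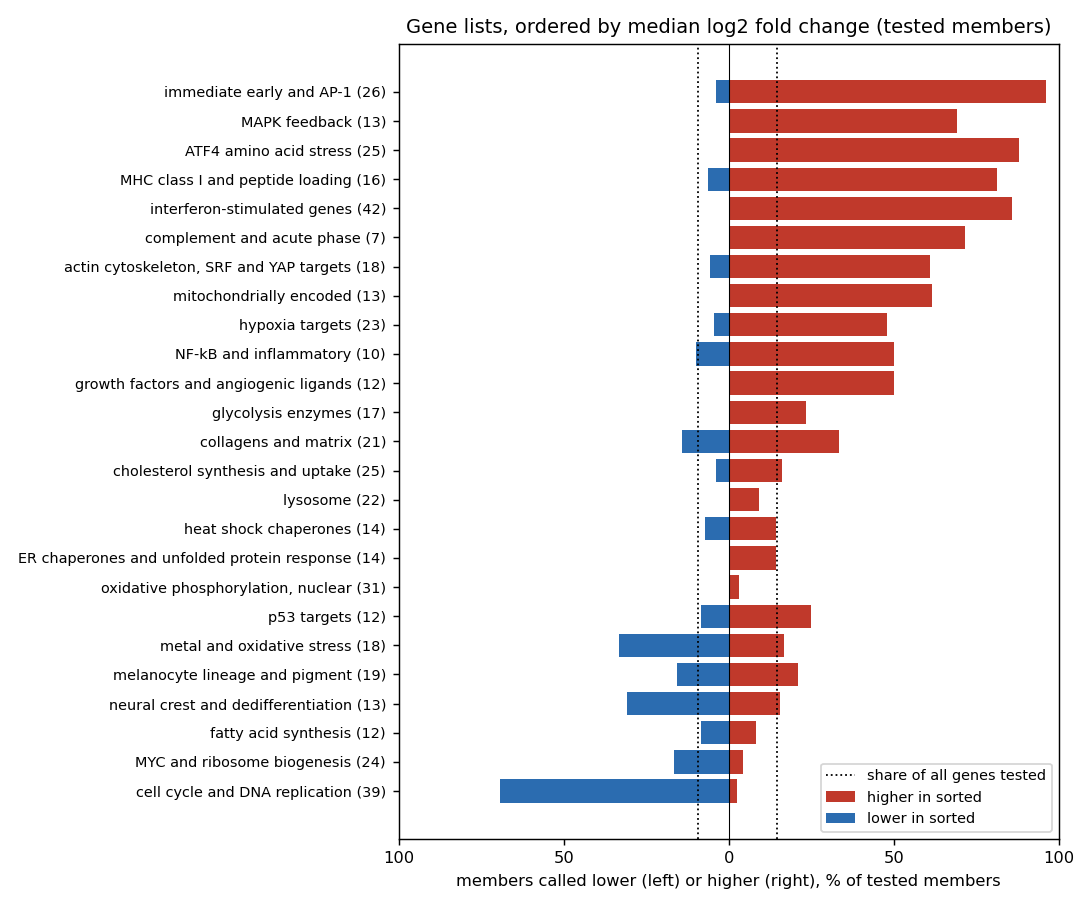
Bars give the percentage of tested members called higher (right, red) or lower (left, blue) for 25 gene lists, with the number of tested members in brackets; dotted lines mark the shares of all tested genes, 14.7% higher and 9.43% lower. Immediate early, ATF4, interferon and MHC class I lists extend farthest to the right and the cell cycle list farthest to the left.

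Promoter windows of RefSeq on GRCm38.p6, from 250 bases before to 50 after the transcription start, were searched for 6 short motifs in 6 of the lists, on both strands. The motifs, the lists and the windows were picked after the list results had been seen, and the 36 list-by-motif shares carry no test. Shares are of genes that have a window, and a gene counted if any of its windows held the motif. The interferon element GAAANNGAAA was found for 18 of 32 interferon-stimulated genes (56.2%) and for 3.48% of 8529 protein-coding tested genes. The hypoxia element ACGTG was found for 14 of 18 hypoxia targets (77.8%, against 30.5%). The C/EBP-ATF element TGATGNAA was found for 8 of 21 ATF4 targets (38.1%, against 2.63%). The cell cycle element CHR, TTTGAA, was found for 12 of 30 cell cycle genes (40%, against 13.8%). Not every list held its known motif this often. The cyclic AMP element TGACGTCA was found for 3 of 22 immediate early genes (13.6%, against 3.81%). The CArG box of serum response factor was found for 2 of 22 (9.09%, against 1.52%), so most genes of the list with the highest median had neither in these windows. Sites farther upstream and sites with other letters were not searched, so absence here does not show that a gene lacks them. The interferon element was found for 3 of 14 MHC class I genes (21.4%). ACGTG was also found for 36.4% of immediate early and 38.1% of ATF4 genes, and TTTGAA for 25% of interferon-stimulated genes. Windows of 10 genes were looked at singly. A motif searched for that gene was present in 5 of them (Gbp2, Car9, Trib3, Chac1 and Plk1) and absent from 5 (Fos, Fosb, Nr4a1, Tap1 and Psmb9), and Chac1 was also searched for the cyclic AMP element, without a match. Below are 4 windows with a match, 1 for each of those motifs, and Fos without one, since Fos is among the genes that rose most. Capitals mark the motif searched for that gene on either strand, and the position of its leftmost printed base is counted from the start site. Gbp2 lies on the plus strand at chr3:142620413-142620712 with the interferon element at -59, Car9 on the plus strand at chr4:43506776-43507075 with ACGTG at -18, Trib3 on the minus strand at chr2:152344011-152344310 with the C/EBP-ATF element at 15, Plk1 on the plus strand at chr7:122159185-122159484 with CHR at 31, and Fos on the plus strand at chr12:85473640-85473939.
Gbp2: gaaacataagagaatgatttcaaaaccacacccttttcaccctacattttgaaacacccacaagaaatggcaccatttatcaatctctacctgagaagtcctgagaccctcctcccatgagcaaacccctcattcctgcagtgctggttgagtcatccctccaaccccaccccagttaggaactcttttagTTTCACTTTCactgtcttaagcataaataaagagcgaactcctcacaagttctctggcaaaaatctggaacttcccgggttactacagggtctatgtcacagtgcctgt
Car9: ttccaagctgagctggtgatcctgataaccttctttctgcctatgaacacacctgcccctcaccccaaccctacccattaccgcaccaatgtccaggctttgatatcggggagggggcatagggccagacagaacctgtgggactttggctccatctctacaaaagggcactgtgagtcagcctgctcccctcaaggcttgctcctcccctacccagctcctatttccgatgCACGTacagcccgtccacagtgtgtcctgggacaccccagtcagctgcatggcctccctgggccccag
Trib3: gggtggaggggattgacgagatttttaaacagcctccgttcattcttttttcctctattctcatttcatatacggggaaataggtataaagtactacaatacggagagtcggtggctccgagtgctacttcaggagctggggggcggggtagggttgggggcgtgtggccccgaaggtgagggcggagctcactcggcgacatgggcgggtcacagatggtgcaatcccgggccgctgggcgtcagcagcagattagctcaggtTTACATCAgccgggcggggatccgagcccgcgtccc
Plk1: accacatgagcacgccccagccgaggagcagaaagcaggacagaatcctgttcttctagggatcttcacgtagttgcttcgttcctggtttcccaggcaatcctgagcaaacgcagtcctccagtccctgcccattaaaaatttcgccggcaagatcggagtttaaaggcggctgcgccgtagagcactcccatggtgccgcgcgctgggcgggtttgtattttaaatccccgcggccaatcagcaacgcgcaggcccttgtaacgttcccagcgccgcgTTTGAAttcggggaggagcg
Fos: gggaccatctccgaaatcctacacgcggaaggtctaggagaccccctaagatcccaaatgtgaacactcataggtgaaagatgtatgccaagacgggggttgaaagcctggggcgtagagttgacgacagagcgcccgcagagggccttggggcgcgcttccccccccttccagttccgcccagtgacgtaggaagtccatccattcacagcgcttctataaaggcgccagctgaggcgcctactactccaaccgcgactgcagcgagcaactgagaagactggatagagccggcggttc
A match is a run of letters and no evidence that a factor bound there.

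Immediate early genes held the largest gains. Fosb and Fos encode subunits of the transcription factor AP-1. Fosb (ENSMUSG00000003545, chr7:19302696-19310051 of GRCm38, minus strand) had lowest, median and highest values of 155, 275 and 325 TPM in sorted cells and 0.07, 0.275 and 0.38 TPM in cultured cells. Its log2 fold change was 7.69 (SE 0.153, limma adjusted p = 2.26e-11). Fos (ENSMUSG00000021250, chr12:85473890-85477273 of GRCm38, plus strand) had 221, 244 and 468 TPM in sorted cells and 0.78, 0.96 and 1.54 TPM in cultured cells, a log2 fold change of 7.05 (SE 0.124, limma adjusted p = 8.76e-12). For both genes every sorted library exceeded every cultured library by more than 100 TPM. In bulk tumors Fosb had 0.86, 2 and 4.79 TPM and Fos 13.5, 18.1 and 27.4 TPM, far below every sorted library. Egr1, a zinc finger factor of growth factor responses, had 33.1, 57.1 and 94.5 TPM sorted against 0.05, 0.12 and 0.32 TPM cultured (log2 fold change 5.68), with 6.52, 8.59 and 9.78 TPM in bulk tumors. Klf4 and Klf2, Krüppel-like factors, rose by 5.40 and 4.34 on the log2 scale. Atf3, a stress-induced factor of the ATF family, rose by 3.96. Nr4a1, an orphan nuclear receptor of this class, rose by 3.87, Dusp1, a phosphatase that switches off MAP kinases, by 3.48, and Jun, the partner of FOS, by 2.99. The exception was Ier3, a survival factor, which fell by 1.14 over all libraries and by 1.78 in control, and whose log2 fold change with sg495 was -0.05, not called.

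The immediate early counts were alike by guide, with 25, 24 and 25 of 26 members higher within control, sg492 and sg495, beside 12.5%, 13.2% and 16% of all tested genes higher. Against bulk tumors, in a fit of 18 libraries added after the data had been seen, 23 of the 26 members were higher in sorted cells and 1 was lower, beside 4.65% of all genes higher and 5.24% lower. Bulk tumors also hold other cells, and fewer cells of a type and less RNA per cell cannot be told apart there. Bead sorting separates sorted cells from both other sample types, whether bulk tumors were digested is not described, and the part of either step in these gains was not tested. Sik1, a kinase induced by cyclic AMP and named as one of the 12 largest gains, had 91.6, 127 and 135 TPM in sorted cells, 1.32, 1.58 and 2.47 TPM in cultured cells and 12.2, 15.9 and 19.7 TPM in bulk tumors. Hspa1b, a heat shock chaperone whose near-identical copy Hspa1a can share its reads, was likewise higher in sorted cells (38.1, 86.6 and 300.2 TPM) than in cultured cells (3.44, 4.03 and 5.49 TPM) and bulk tumors (6.57, 7.26 and 12.5 TPM). Lcp1, also among the 12 largest gains, had bulk levels that overlapped those of sorted cells. This actin-bundling protein of leukocytes and of many tumor cells had 26.8, 37.2 and 47.5 TPM in sorted cells and 0.59, 0.75 and 1.34 TPM in cultured cells, with 38.8, 62 and 73.7 TPM in bulk tumors. The plot of 12 genes by library includes Fosb, Fos and Klf4.

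**Figure D3:**
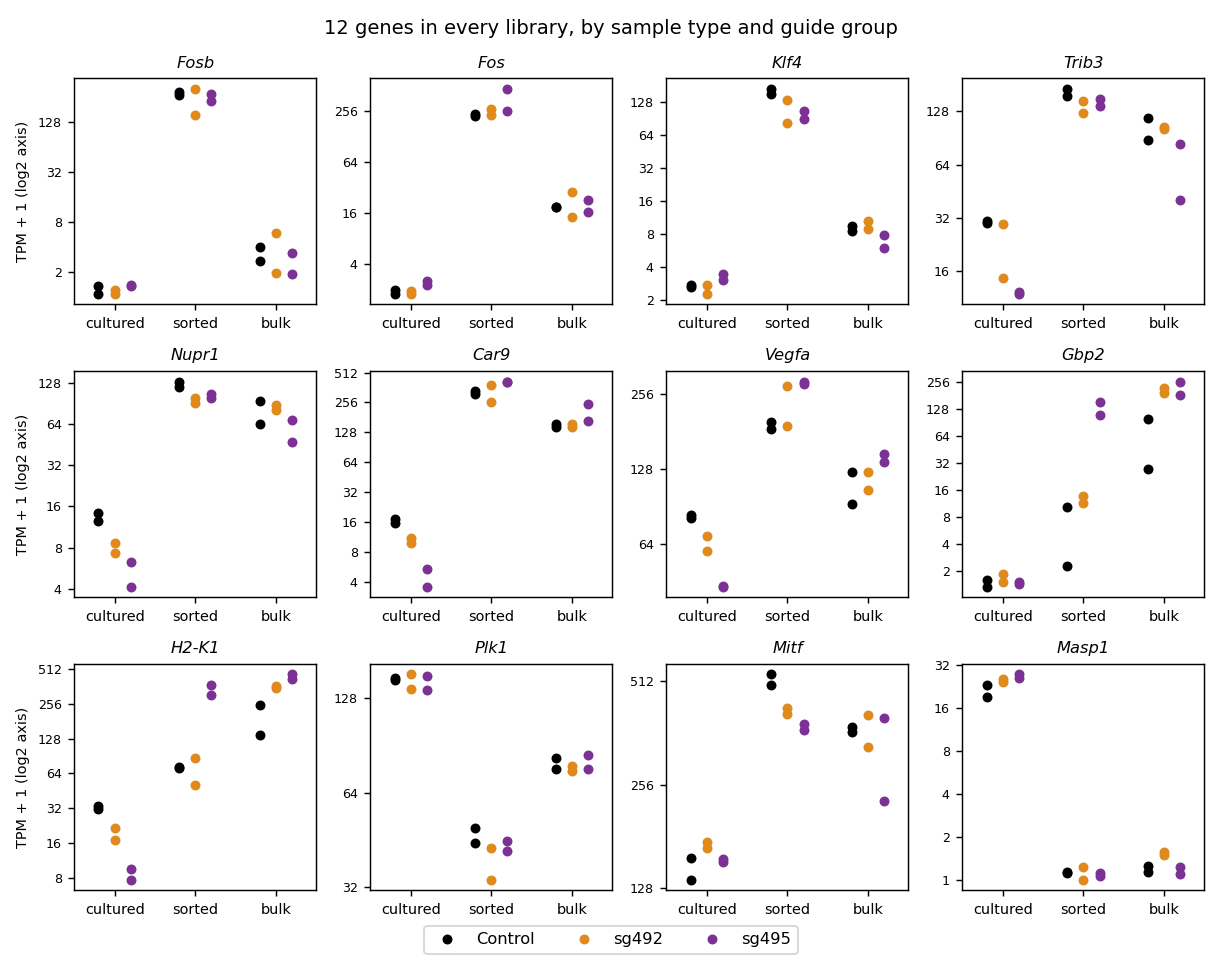
Each panel shows 1 gene, with TPM + 1 on a log2 axis, a point for each library and sample types side by side; black, orange and purple points are control, sg492 and sg495. Fosb, Fos and Klf4 were higher in sorted cells than in either other sample type, Masp1 was near 0 outside culture, and Gbp2 and H2-K1 differed by guide within the sorted arm.

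Feedback genes of the MAPK pathway and genes of the actin cytoskeleton were mostly higher in sorted cells. Of 13 MAPK feedback genes tested, 9 were higher, and within control, sg492 and sg495 the higher counts were 11, 9 and 9. Dusp5, an ERK phosphatase, rose by 3.50 on the log2 scale, from 0.17, 0.405 and 0.67 TPM in culture to 13, 14.5 and 17.6 TPM in sorted cells. Etv5 and Etv4, ETS factors that ERK induces, rose by 3.04 and 2.61, and Spry2 and Dusp4, inhibitors of the pathway, by 2.76 and 2.24. Against bulk tumors, 4 of the 13 members were higher in sorted cells and 1 was lower, beside 4.65% and 5.24% of all tested genes. Bulk tumors had 2.96 to 7.01 TPM of Dusp5, 25.5 to 39.2 TPM of Spry2 and 86.9 to 139 TPM of Dusp4, below every sorted library. Etv5 had 16.6, 21.3 and 23.9 TPM in sorted cells and 17.7, 21.6 and 26.1 TPM in bulk tumors. Spred1, Spred2 and Spry1, inhibitors of the same pathway, had log2 fold changes of 0.14, 0.50 and 0.33 and did not pass the test. In the list of actin, SRF and YAP targets, 11 of 18 members were higher and 1 was lower, beside 14.7% and 9.43% of all tested genes. Cyr61 and Ctgf, matricellular proteins and targets of YAP, rose by 4.21 and 2.44. Cyr61 had 237, 276 and 383 TPM in sorted cells and 36.5, 47.6 and 57.9 TPM in bulk tumors, whereas Ctgf had 11.7, 16.8 and 22.2 TPM and 18.5, 30.2 and 45.7 TPM. Myl9, a myosin light chain, rose by 2.85, Cnn2, a calponin, by 2.57, and Vcl, the focal adhesion protein vinculin, by 2.14. Cnn3, a calponin of the same family, fell by 0.81, and Actb had a log2 fold change of 0.11.

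ATF4 target genes were higher in sorted cells for 22 of 25 tested members, and within control, sg492 and sg495 for 23, 22 and 20. Nupr1, a stress-induced chromatin protein, had 89.3, 101 and 129.5 TPM in sorted cells and 3.14, 7 and 13.3 TPM in cultured cells (log2 fold change 3.71, SE 0.165, limma adjusted p = 8.53e-09). Trib3, a pseudokinase of the stress response, had 123, 147 and 170.1 TPM in sorted cells and 10.9, 21.1 and 29.7 TPM in cultured cells, a log2 fold change of 2.90. Its cultured libraries were lower with sg495, at 10.9 and 11.2, than in control, at 28.9 and 29.7. Chac1, which degrades glutathione, rose by 2.7, and Ppp1r15a, a phosphatase subunit that restores translation, by 3.56. Ddit3, the stress factor CHOP, rose by 2.32. Enzymes and carriers of amino acid supply rose as well, with Asns, asparagine synthetase, at 1.48, Pycr1 of proline synthesis at 2.62, Slc7a11, the cystine carrier, at 2.11 and Slc3a2, its heavy chain, at 1.72. Psat1, Shmt2 and Phgdh of serine and glycine synthesis were not called, at 0.14, 0.14 and 0.43. Against bulk tumors, 10 of the 25 members were higher in sorted cells, beside 4.65% of all tested genes.

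The chaperone lists did not follow the ATF4 list, and their higher counts were near the share of all tested genes, 14.7%. Of 14 tested genes of ER chaperones and the unfolded protein response, 2 were higher, Dnajb9 (2.29 on the log2 scale) and Herpud1 (1.72), which acts in degradation of ER proteins. Hspa5, the main ER chaperone, had 881, 1047 and 1171 TPM in sorted cells and 874, 974 and 1015 TPM in cultured cells and did not pass the test (0.11). Of 14 heat shock chaperones, 2 were higher (Hspa1b and Dnajb1) and Cryab was lower by 1.15. Dnajb1 was called by limma at an adjusted p of 0.0443 and lost that call when any of several single libraries was left out, among them replicate 2 of sorted sg495, without which its log2 fold change was 0.39.

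Hypoxia targets were higher for 11 of 23 tested members and lower for 1. Car9 (ENSMUSG00000028463, chr4:43506966-43513729 of GRCm38, plus strand), the carbonic anhydrase that hypoxic cells use to control pH, had 258, 357 and 415 TPM in sorted cells and 2.57, 9.54 and 16.1 TPM in cultured cells. Its log2 fold change was 5.25 (SE 0.303, limma adjusted p = 5.90e-08). No sorted library overlapped a cultured one, as the rule for naming the largest changes required. Vegfa, which encodes the vessel growth factor, rose by 1.92, from 42, 63.5 and 82.9 TPM to 185, 236 and 287 TPM. Mxi1, a MYC antagonist, rose by 1.59, Ndrg1 by 1.39, Bnip3, a mitophagy receptor, by 0.98 and Slc2a1, the glucose carrier, by 0.95. Egln3, an oxygen-sensing hydroxylase that HIF induces, went the other way and fell by 1.63, while Pdk1, Pfkfb3 and Adm were not called (0.55, 0.11 and 0.25). The higher counts were 5 within control, 11 within sg492 and 17 within sg495, beside 12.5%, 13.2% and 16% of all tested genes. The lower counts were 2, 3 and 1, beside 8.06%, 9.97% and 12.1%. The list medians in the same order were 0.20, 0.54 and 1.17, so the pooled count rested unequally on the guide groups. The difference between the sg495 change and the control change was called, upward, for 12 of 23 members, beside 1.52% of all tested genes. Cultured cells of that guide started lower. Car9 had 14.6 and 16.1 TPM in cultured control and 4.41 and 2.57 with sg495. The sorted control libraries had 308 and 333 TPM of Car9, and the sorted sg495 libraries had 415 and 411. Against bulk tumors, 9 of the 23 members were higher in sorted cells and 2 lower, beside 4.65% and 5.24% of all tested genes. Bulk tumors had 143 to 245 TPM of Car9 and 91.4 to 146 TPM of Vegfa, between the cultured and sorted ranges. Bulk levels of Mxi1 (17.3 to 23.35 TPM) and Ndrg1 (49.4 to 71.9 TPM) overlapped culture (11 to 19 and 34.1 to 68.6 TPM). Both lay below every sorted library.

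Glycolysis enzymes were higher for 4 of 17 members, beside 14.7% of all tested genes. Eno2, Aldoc, Ldhb and Hk1 rose by 1.53, 1.08, 0.96 and 0.68, and these are isoforms with relatives in the same list that did not pass the test, Eno1 (0.02), Aldoa (0.11), Ldha (-0.15) and Hk2 (0.30). Secreted growth and vessel factors were higher for 6 of 12 members. Pgf, placental growth factor, had 16.6, 33.2 and 78.7 TPM in sorted cells and 0.99, 2.57 and 4.65 TPM in cultured cells, a log2 fold change of 3.22. Tgfb1 rose by 1.11, Pdgfa by 0.93 and Igf1r, a receptor kept in this list, by 1.23.

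Interferon-stimulated genes and MHC class I genes had high pooled counts that rested unequally on the guide groups. Of 42 tested interferon-stimulated genes, 36 were higher over all 12 libraries, but 12 were higher within control, 21 within sg492 and 40 within sg495. Of these 42 genes, 19 had a cultured mean under 1 TPM and passed the filter through the sorted arm, and 6 of the 48 listed genes were not tested. Of 16 genes of MHC class I and peptide loading, 13 were higher and 1 lower, and within control, sg492 and sg495 3, 7 and 13 were higher. Of all tested genes, 12.5%, 13.2% and 16% were higher within control, sg492 and sg495. Of these 16 genes, 5 had a cultured mean under 1 TPM and passed the filter through the sorted arm, and all 5 are among the 13. The difference between the sg495 change and the control change was itself called, upward, for 31 of the 42 and 13 of the 16 genes, beside 1.52% of all tested genes higher and 0.62% lower. Without replicate 1 of sorted sg495, 30 interferon-stimulated and 11 MHC class I genes were higher.

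H2-K1 (ENSMUSG00000061232, chr17:33996017-34000347 of GRCm38, minus strand) encodes an MHC class I heavy chain. Sorted cells had 71.7 and 70.5 TPM in control, 86.3 and 49.4 in the libraries labeled sg492 and 304 and 369 with sg495. In culture sg495 was the lowest group instead, with 32.2 and 30.4 TPM in control, 20.4 and 15.9 with sg492 and 8.55 and 6.69 with sg495. The log2 fold change was 1.16 within control, 1.80 within sg492 and 5.29 within sg495 (difference of sg495 from control 4.13, limma adjusted p = 4.23e-04). Gbp2, a guanylate-binding protein that interferons induce, had 9.29 and 1.26 TPM in sorted control and 152 and 109 in sorted sg495, and all cultured libraries were under 1 TPM. Tap1, a subunit of the peptide transporter of antigen presentation, had 4.67 and 0.6 TPM in sorted control and 60.1 and 67.4 in sorted sg495. Psmb8, a subunit of the immunoproteasome, had 1.22 and 0 TPM in sorted control and 42 and 57.6 in sorted sg495. For these genes the sorted sg495 libraries lay apart from the other sorted libraries. The gene pair Tgtp1 and Tgtp2 also rose, but the copies are near-identical and their reads may be split. Calr, a chaperone of peptide loading, fell by 0.70. Bulk tumors were higher than sorted cells for 38 of the 42 interferon-stimulated genes and for 13 of the 16 MHC class I genes. Of all tested genes, 5.24% were higher in bulk tumors than in sorted cells. Marker genes of dendritic cells moved with this pattern. Their summed level was 6.04 to 210.51 TPM in sorted cells, and Cd74, the MHC class II chaperone that many interferon-treated cells also express, had 2.18 and 1.39 TPM in sorted control and 92.4 and 92.9 in sorted sg495. Of the 12 markers of that list, 4 were at 0 in every sorted library and 5 had a sorted mean of at least 1 TPM; their part in the result was not tested. The plot of list medians by guide shows where the guide groups part.

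**Figure D4:**
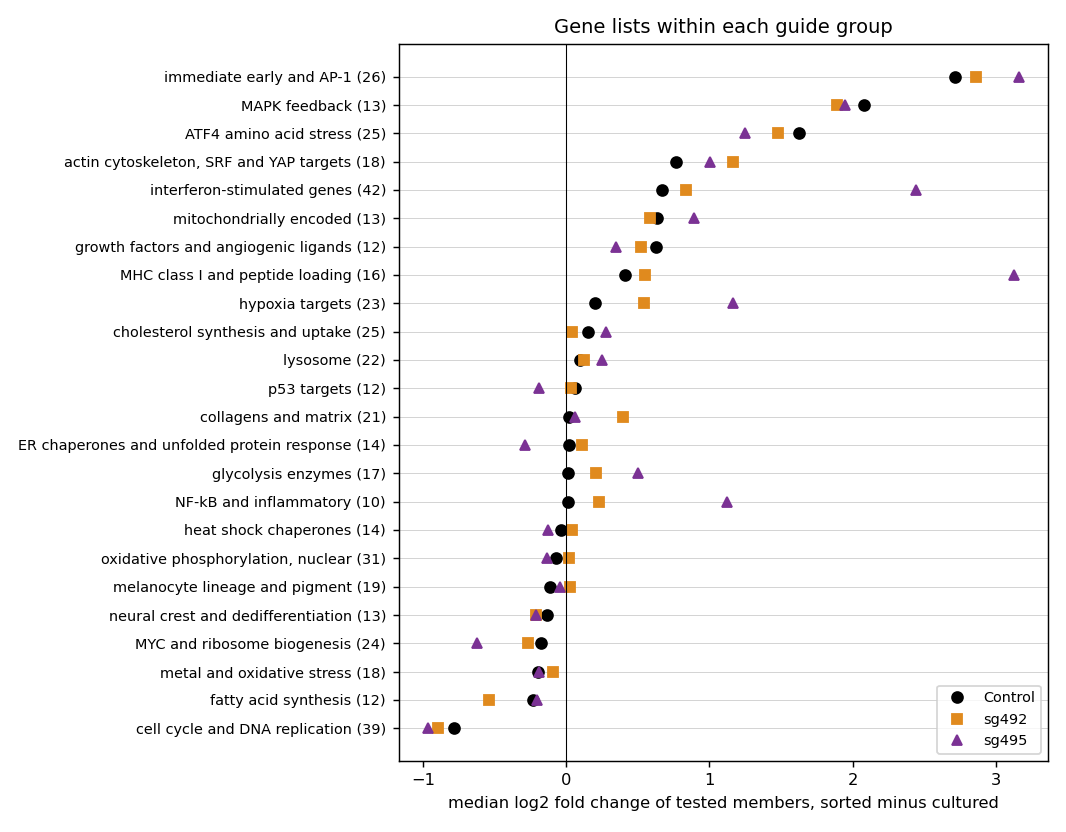
Points give the median log2 fold change, sorted minus cultured, of the tested members of each list with at least 10 of them, within control (circles), sg492 (squares) and sg495 (triangles). Interferon-stimulated genes had medians of 0.67, 0.84 and 2.45, while immediate early genes lay between 2.72 and 3.16.

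Genes of the cell cycle and DNA replication were lower in sorted cells for 27 of 39 tested members and higher for 1. The lower counts were 24, 28 and 31 within control, sg492 and sg495, beside 8.06%, 9.97% and 12.1% of all tested genes lower. Plk1, the kinase of mitotic entry, had 32.7, 42.4 and 48.1 TPM in sorted cells and 135, 146 and 151 TPM in cultured cells (log2 fold change -1.77, SE 0.0697, limma adjusted p = 3.31e-09). All sorted libraries were below all cultured libraries, and bulk tumors lay between them at 73.7, 76 and 83.1 TPM. Aurka and Bub1b, mitotic kinases, fell by 1.36 and 1.40, and Kif20a, a mitotic motor, by 1.40. Rrm2, the ribonucleotide reductase subunit that supplies DNA precursors, fell by 1.46, and Mki67, the proliferation marker, by 1.10. The replicative helicase genes moved less, with Mcm3 at -0.85 and Mcm2 at -0.56, the latter not called. Cdkn1b, the cell cycle inhibitor p27, was the member that rose, by 1.10, whereas Cdkn1a, the inhibitor p21, had a log2 fold change of -0.19 and did not pass the test. Ccnf, which encodes cyclin F and is in none of the lists, fell by 2.16. Of 24 genes of ribosome biogenesis, 4 were lower and 1 higher over all libraries. Within sg495 13 were lower, and the list medians were -0.18, -0.27 and -0.62 in control, sg492 and sg495. Nop2 and Polr1a fell by 0.71 and 0.67, and Odc1, the polyamine enzyme and a MYC target, rose by 1.11.

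Pigment cell genes did not move together. Of 19 tested members of the melanocyte list, 4 were higher and 3 lower, beside 14.7% and 9.43% of all tested genes. Mitf, the master factor of the lineage, had 369, 418 and 535 TPM in sorted cells and 134, 155 and 174 TPM in cultured cells (log2 fold change 1.47, SE 0.0854, limma adjusted p = 6.12e-08), without overlap. Trpm1, a channel gene that MITF controls, rose by 2.84, from 38, 43.2 and 73.8 TPM to 294, 367 and 453 TPM, Oca2, a melanosomal pH regulator, by 1.15 and Pax3, a factor upstream of Mitf, by 0.96. Mlana fell by 1.08, Mlph, which tethers melanosomes, by 0.79 and Gpr143, a melanosomal receptor, by 0.61. The pigment enzymes Tyr, Tyrp1 and Dct were not called, at 0.34, -0.12 and 0.38, nor was Sox10 (-0.16). Of 13 tested neural crest and dedifferentiation genes, 2 were higher and 4 lower, beside 14.7% and 9.43% of all tested genes. Snai2, a factor of the neural crest, rose by 1.90 and Sox9 by 0.66. Snai2 had 13.2 to 17.5 TPM in sorted cells, 3.06 to 3.88 TPM in cultured cells and 2.89 to 3.79 TPM in bulk tumors. Bulk levels of Sox9, 1.68 to 3.09 TPM, also overlapped those of culture, 1.49 to 3.35 TPM. Ngfr, a marker of dedifferentiated melanoma, fell by 1.27 from low levels (0.76, 1.05 and 4.4 TPM in culture), Tfap2a by 1.02, Nes by 0.88 and Erbb3 by 0.66. Axl had a log2 fold change of -0.06 and was not called.

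Metabolic lists changed in a few members, beside 14.7% of all tested genes higher and 9.43% lower. The higher counts of the cholesterol, fatty acid, metal and oxidative stress, and lysosome lists were near the first share or below it. Of 25 cholesterol genes, 4 were higher and 1 was lower, among the higher ones Insig1, a sterol sensor, with a log2 fold change of 0.88. In fatty acid synthesis Scd2, a desaturase, fell by 0.90, and 1 of 12 members was higher. The higher member had a cultured mean under 1 TPM. Among metal and oxidative stress genes, 3 of 18 were higher, Slc30a1, a zinc exporter (2.03), Hmox1, heme oxygenase (1.02), and Mt2, a metallothionein (0.98). The 6 lower members included G6pdx of the pentose phosphate pathway, which fell by 1.16, Gsr, glutathione reductase, by 0.91, and Nqo1 by 0.88. The nuclear list of oxidative phosphorylation had Ppargc1a, the coactivator of mitochondrial biogenesis, as its only called member, with 124, 154 and 189 TPM in sorted cells and 25.2, 27.8 and 31.1 TPM in cultured cells (log2 fold change 2.41). Of 13 mitochondrially encoded genes, 8 were higher, among them mt-Nd2 at 1.17, and 6 without replicate 1 of sorted sg495, the library with the highest mitochondrial share. Within control, sg492 and sg495 3, 2 and 7 of them were higher. Lysosome genes were higher for 2 of 22 members, Ctsk, a collagen-cleaving protease (2.39), and Gaa (0.84). Ctsk had 0 to 0.14 TPM in cultured cells and passed the expression filter only through the sorted arm.

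Among p53 targets, 3 of 12 were higher and 1 lower, beside 14.7% and 9.43% of all tested genes. Of the higher ones, 1 had a cultured mean under 1 TPM. Trp53inp1 rose by 1.45 and Bbc3, the death gene PUMA, by 1.20, and Sesn1 fell by 0.62. Trp53inp1 had 25.9 to 37.8 TPM in sorted cells, 10.3 to 12.8 TPM in cultured cells and 6.96 to 9.59 TPM in bulk tumors. Bbc3 had 9.08 to 16.1 TPM in sorted cells, 3.1 to 6.73 TPM in cultured cells and 4.25 to 7.29 TPM in bulk tumors. Of 10 tested NF-kB and inflammatory genes, 5 were higher, led by the chemokine Ccl5 (1.54) and Saa3 (1.29), and Nfkbia, the inhibitor of NF-kB, fell by 0.88. Of the 5 higher genes, 1 had a cultured mean under 1 TPM. The higher counts were 1, 3 and 5 within control, sg492 and sg495, 2 were lower within control and within sg492, and 4 were higher and 2 lower without replicate 1 of sorted sg495. The other 12 genes of that list did not reach the expression filter. Complement genes were higher for 5 of 7 members, and within control, sg492 and sg495 for 3, 3 and 5. C4b had 3.95, 7.13 and 39.8 TPM in sorted cells and 0.03, 0.07 and 0.11 TPM in cultured cells, and its change differed with sg495 by 2.69 from that in control. C4b passed the expression filter only through the sorted arm. Of 21 tested collagen and matrix genes, 7 were higher and 3 lower. Of the 21, 4 had a cultured mean under 1 TPM, and 3 of those were among the higher genes. Against bulk tumors 12 were lower in sorted cells, beside 5.24% of all tested genes. Fn1, fibronectin, had 54.5, 75.4 and 86.9 TPM in sorted cells and 13.6, 16.6 and 20.4 TPM in cultured cells (log2 fold change 2.0), and Col4a1 of basement membranes rose by 1.23. Postn and Col5a1, matrix genes that fibroblasts express strongly, fell by 1.94 and 1.49.

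The genes that sorted cells lost most came from many roles. Masp1 (ENSMUSG00000022887, chr16:23449417-23520815 of GRCm38, minus strand), a serine protease of the lectin pathway of complement, had 18.2, 24.2 and 26.7 TPM in cultured cells and 0, 0.115 and 0.23 TPM in sorted cells. Its log2 fold change was -4.46 (SE 0.0961, limma adjusted p = 4.31e-11), and bulk tumors were low as well, at 0.1, 0.23 and 0.56 TPM. Masp1 passed the expression filter only through the cultured arm and could hardly have been called higher. Kank4, an adaptor of the cytoskeleton, fell by 3.23 and Crabp2, a carrier of retinoic acid, by 3.03, and both were also low in bulk tumors (0.83, 1.48 and 2.05 TPM and 1.18, 1.57 and 3.94 TPM). Tg, thyroglobulin, fell by 2.54, St3gal1, a sialyltransferase, by 2.24, Gstk1, a glutathione transferase, by 2.37 and Slc27a6, a fatty acid carrier, by 2.21. Pmp22, a myelin protein gene, fell by 2.78, and Wisp1, a matricellular protein gene, by 2.34. Fam212a fell by 3.03 and Gm4245 by 3.26. Gm4245 varied widely in culture, at 1.77, 11.5 and 21.4 TPM, and it too passed the filter only through the cultured arm. Bulk tumors kept higher levels of Pmp22 (14.1, 19.3 and 30.8 TPM) and Fam212a (25.9, 29.7 and 35.3 TPM) than sorted cells (2.73, 4.97 and 7.38 TPM and 7.2, 8.75 and 11.4 TPM).

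Nr2f6, the targeted gene, fell by 0.63 on the log2 scale from culture to sorted cells (limma adjusted p = 1.65e-04). Cultured libraries had 31.9 and 32.9 TPM in control, 26.6 and 31.5 with sg492 and 18.6 and 22.4 with sg495. Sorted libraries had 20.3 and 17.7 TPM in control, 19.8 and 25.7 in those labeled sg492 and 10.6 and 12.2 with sg495. The sorted libraries labeled sg492 were therefore not below control, and directions drawn from that guide rest on the label. The change was -0.74, -0.34 and -0.79 in control, sg492 and sg495. Without replicate 1 of sorted sg495 or replicate 2 of cultured sg495 it was -0.58 or -0.57 and fell short of 1.5-fold.

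The within-guide comparisons share no library, so their calls can be set beside each other. Within control 1573 genes were higher and 1014 lower, within sg492 1661 and 1254, and within sg495 2018 and 1519. A total of 1094 genes were higher in all 3, or 69.5%, 65.9% and 54.2% of the lists of control, sg492 and sg495. For lower genes 668 were shared, or 65.9%, 53.3% and 44%. The sg495 change differed from the control change for 269 genes, 191 upward and 78 downward, and the sg492 change for 2, or 0.00795% of tested genes in each direction. Those 2, the microRNA gene Mir678 and the small nucleolar RNA Snord88a, were named after their values were seen, and short RNAs are poorly measured in poly(A) libraries.

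Markers of other cell types were measured in 12 lists. By mean summed level, fibroblast markers in sorted cells stood at 0.96% of the bulk tumor level, markers of T and NK cells at 0.77%, of adipocytes at 0.38% and of erythroid cells and platelets at 1.35%. Other lists stood nearer to the bulk level, with dendritic cells at 7.73%, muscle at 12.4%, neutrophils at 14%, keratinocytes at 29.3%, B cells at 32.6% and endothelial cells at 50.4%. Against culture, 4 of 8 tested leukocyte markers, 4 of 5 of dendritic cells and 3 of 3 of erythroid cells and platelets were called higher in sorted cells, and 2, 4 and 3 of these had a cultured mean under 1 TPM. Those of muscle (2 of 4), macrophages (1 of 3), endothelial cells (1 of 4) and B cells (1 of 1) had fewer such calls. Col1a1, the main fibrillar collagen, had 0.4, 0.725 and 1.92 TPM in sorted cells and 72.2, 114 and 208 TPM in bulk tumors. Hbb-bs, a beta globin whose near-identical copies can share its reads, had 1.03, 2.54 and 15.3 TPM in sorted cells, 0 in all cultured cells and 127, 259 and 661 TPM in bulk tumors. The lists of leukocytes and macrophages stood at 55.2% and 44.5%, but cultured cells also reached 431.92 to 610.62 and 530.68 to 874.17 TPM on them, through Arhgdib and Apoe (415, 541 and 586 TPM and 525, 855 and 872 TPM in culture). Cultured cells likewise reached 1.74 to 2.94 TPM on the keratinocyte list and 18.02 to 27.78 TPM on the muscle list. Sorted cells had 1.25 to 3.42 and 17.62 to 37.6 TPM on these lists. The B cell list summed to 2.56 to 4.16 TPM in sorted libraries, where Cd79a alone had 2.26 to 4.16 TPM. Cd79a had 1.61 to 3.26 TPM in bulk tumors and 0.19 to 1.03 TPM in cultured cells. The neutrophil list summed to 0.06 to 5.43 TPM in sorted libraries, highest in replicate 2 of sg495. Eng, the highest endothelial marker in sorted cells, had 100 to 113 TPM there and 114 to 145 TPM in culture. Vwf, an endothelial marker named after its values were seen, had 13.4, 16.7 and 31.8 TPM in sorted cells, 0.14, 0.75 and 1.38 TPM in cultured cells and 7.71, 14.4 and 18.8 TPM in bulk tumors, whereas the summed endothelial list was 144.46 to 162.55 TPM in sorted and 134.62 to 165.36 TPM in cultured cells. Pecam1, another endothelial marker, had 0.15 to 0.85 TPM in sorted cells, 0.02 to 0.24 TPM in cultured cells and 15.96 to 20.5 TPM in bulk tumors. The median over the endothelial list was 0.01 to 0.25 TPM in sorted libraries and 12.8 to 16.6 TPM in bulk tumors. The part of residual host cells in the gains was not tested. The plot of marker lists shows the libraries singly.

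**Figure D5:**
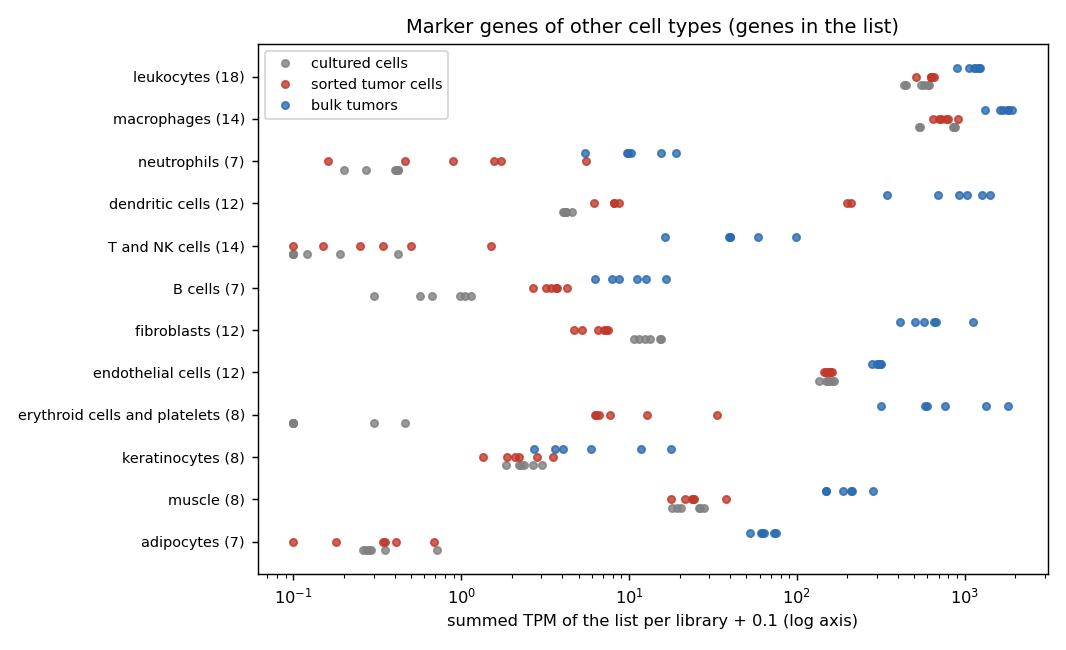
Each point is the summed TPM of a marker list in 1 library, plus 0.1, on a log axis, for cultured cells (gray), sorted tumor cells (red) and bulk tumors (blue); the number of genes in each list is in brackets. Fibroblast, T and NK cell and adipocyte markers in sorted cells lie far below bulk tumors, and 2 sorted libraries, both sg495, lie near 200 TPM on the dendritic cell list.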

How the data were processed

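The authors trimmed reads with Cutadapt 2.3, aligned them to mm10 with STAR 2.7.0d and Ensembl annotation, and estimated expression with RSEM 1.3.1; they deposited TPM to 2 decimals for 47643 genes. Poly(A) RNA had been sequenced from a single end with a strand-preserving kit, and the strand setting of the counting is not given in the sources used here, so genes that overlap an antisense gene are uncertain. TPM add up to the same total in each library, so the depth of each library cannot be read from the deposited values and no counting interval can be given.

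TPM were taken as log2(TPM + 1) for genes averaging 1 TPM or more across the 12 libraries and fitted with limma 3.58.1 in R 4.3.3, with guide group as a block and an expression trend in eBayes. A model with 6 group means gave the within-guide changes and their differences. Tests were 2-sided, with Benjamini-Hochberg adjustment over 12575 genes, and the code was tested on simulated data. The 5 libraries labeled IgG or anti-PD1 were not used. Gene types and positions came from GENCODE M21 on GRCm38, which matched 100% of identifiers, and 118 symbols stand for more than 1 gene. Named genes were, per direction, the 12 largest changes among called protein-coding genes without overlap, of 1 sign in all guide groups and with at least 10 TPM in the higher arm; up to 5 called members of each list and up to 3 of its rarer direction; Nr2f6; and leading markers of other cells. Members of lists that did not pass, and called members beyond those 5, are named as examples chosen after their values were seen. Some genes that the rule names are not reported here. Members and lists were chosen with earlier results of these data known. Promoter motifs were searched with Python 3.11.15 and pandas 2.3.3. Alternatives were a pseudocount of 0.1, other filters, scalings and models, a replicate block, other fold thresholds, and each library left out in turn.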

Additional observations from a re-analysis of the deposited data

Results flagged for a closer look

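The change from culture to tumor differed between sg495 and control, at a limma adjusted p below 0.05 for the difference itself, for 32 of the genes named by the rule. Values are log2 fold changes with sg495 minus those in control. Interferon-stimulated genes gave 4.75 for Gbp2, 5.12 for Igtp, 4.72 for Iigp1, 4.87 for Tgtp1 and 5.63 for Tgtp2. Genes of antigen presentation gave 4.13 for H2-K1, 4.62 for Tap1, 3.23 for Tap2, 5.19 for Psmb8, 4.83 for Psmb9 and 5.08 for Cd74. Complement genes gave 1.23 for C1ra, 1.68 for C1s1, 1.45 for C2 and 2.69 for C4b. Hypoxia and glycolysis genes gave 2.26 for Car9, 1.51 for Vegfa, 0.79 for Mxi1 and 1.41 for Aldoc. Stress and immediate early genes gave 1.08 for Egr1, 1.73 for Ier3, 1.38 for Hmox1 and 1.10 for Nupr1. Apoe gave 0.69 and Pmp22 0.94. Downward differences were -0.54 for Dusp4, -0.54 for Mitf, -0.61 for Nop2, -0.60 for Polr1a, -0.40 for Rrm2, -1.13 for Tg and -0.999 for Wisp1. Of these, Dusp4, Mitf and Rrm2 did not reach a 1.5-fold difference. No group has 4 or more libraries, so single libraries could not be screened as outliers within a group.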

How the results depend on the processing

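Counts of genes higher and lower stayed within 1.5 times of 1853 and 1186 under a pseudocount of 0.1, no filter, both scalings, no guide block, 6 group means, all 18 libraries and no variance trend. Without a fold threshold they were 3826 and 4377, at a fold of at least 2 they were 924 and 310, and with a mean of at least 5 TPM 1148 genes were higher, since fewer genes were tested. Leaving out each library gave 1735 to 1917 higher and 1150 to 1251 lower genes. Same-numbered libraries did not deviate together (r = -0.058, 0.0089 and -0.0047 in control, sg492 and sg495), and a replicate block gave 1842 and 1187. Of the calls, 61% were higher, 65.3% with median-of-ratios scaling and 51.1% with quantile normalization. The difference of sg492 was called for 5 genes with a pseudocount of 0.1 and 1 gene at a mean of at least 5 TPM, both added after the data had been seen, against 2. Of 135 named called genes, 97 kept their call under every alternative that tested them and none changed sign; 38 lost it at a fold of at least 2. Leaving out each library kept 125, and Dnajb1, C1s1, Grwd1, Nr2f6, Gpr143, Sesn1, Hsd17b7, Acat2, Sox9 and Wdr12 lost a call. With 2 libraries per group and no read counts per library, no counting error could be given for genes of low TPM.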

Other observations

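Long noncoding genes were higher in sorted cells more often than protein-coding genes. Of 562 tested, 268 were higher (47.7%) and 13 lower, against 1471 and 1090 of 10987 protein-coding genes, and their median log2 fold changes were 0.58 and -0.04. This grouping was chosen after the values had been seen, and no test was made. A gene of low level could pass the expression filter through the sorted arm alone and could then hardly be called lower. Of all 1853 higher genes, 436 had a cultured mean under 1 TPM, and how many of the 268 did was not counted. Neat1, the RNA of paraspeckles, had 190.66 to 566.7 TPM in sorted cells, 17 to 28.13 TPM in cultured cells and 167.58 to 287.09 TPM in bulk tumors. Malat1, an abundant nuclear RNA, had 44.43 to 202.89, 9.33 to 18.52 and 37.28 to 57.54 TPM. Replicate 1 of sorted sg495 was the highest library for both RNAs and had the highest mitochondrial share, 8.02%. Against bulk tumors, the median log2 fold change of long noncoding genes in sorted cells was 0.10.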
